A study of Ovis aries with 32 samples.

Results

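A set of 200 sheep genes was examined whose liver level was lower the larger the part of a library that lay outside annotated genes. For each liver library, the share outside annotated genes was the number of uniquely aligned fragments that HTSeq placed on no gene, divided by the sum of these fragments, the fragments counted on genes and the ambiguous fragments. Gene levels were expressed as CPM, that is, counts scaled to a fixed sum over all genes of the same library. Candidates needed a level of 10 CPM or higher in no fewer than 9 of the 16 liver libraries and a mean liver level within 3 log2 units of the mean muscle level, in either direction. Of the 27054 genes in the tables, 20075 had at least 1 count in any library, 6130 met the CPM limit in liver and 5234 were candidates after the ratio limit and the exclusion of the first 37 identifiers of the annotation. The 200 members, 3.82% of the candidates, were those with the lowest Spearman correlation between liver CPM and the share. Liver CPM, the liver share and the liver to muscle ratio therefore chose the members, and their relations are described here without a test. The diet test in liver used the same CPM, and its limit is given there.

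The libraries came from liver and muscle of 16 Appenninica × Sarda crossbred lambs, which were 154 to 190 days old per the labels. The 8 CTRL lambs received a control diet with a cyclodextrin matrix, and the 8 EO lambs received the same diet and matrix with a mixture of essential oils from dill seed, cinnamon bark and the leaves of eucalyptus. Each diet group held males and females, but the labels do not give the sex of a lamb, and it was not used. Every lamb gave 1 liver and 1 muscle library, so each of the 4 groups of tissue and diet had n = 8 separate animals.

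The liver makes most plasma proteins and bile, stores and releases energy, and chemically converts absorbed plant compounds, whereas skeletal muscle is made mainly of contractile fibres. HTSeq assigns a fragment to a gene where it overlaps the annotated exons, so fragments in introns, between genes and in unannotated transcripts all enter the counter for no gene. The term intergenic is therefore wider than what the counter can show, and "share outside annotated genes" is used below. CPM is a share of a fixed total, so a lower CPM of some genes goes with a higher CPM of others in the same library. In bulk tissue, fewer cells of a type and less RNA per cell cannot be told apart.

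The tables name genes by Ensembl identifiers only, and the gene table supplied with them (assembly ARS-UI_Ramb_v3.0) matched 0 of these identifiers. Functions, gene lists and markers of liver and muscle cell types could therefore not be assigned, and neither the labelled tissues nor the other cells in them were checked against markers. Single genes are named by identifier only where a result turns on them.

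Between 1460920 and 6689488 fragments per library were counted on genes in liver and between 2572638 and 14035050 in muscle. The share outside annotated genes ran from 23.6% to 48.6% in liver but only from 27.2% to 30.5% in muscle. It was 35.2% ± 10.2 (SD, n = 8) in CTRL and 32.5% ± 7.31 (n = 8) in EO livers, a difference smaller than the SD within either group (exact permutation test over all 12870 splits, two-sided, p = 0.545). The corresponding values in muscle were 29.1% ± 1.00 and 29.2% ± 1.03 (exact permutation test, two-sided, p = 0.83). The high-share livers belonged to both diets, with CTRL lambs 2, 3, 6 and 8 and EO lambs 14 and 16 above 35% and the other 10 livers below. The alignments that were not unique made up 23.9% to 56.4% of everything recorded in liver, and the liver with the highest value, EO lamb 16, also had a high share outside annotated genes. The muscle library of CTRL lamb 5 had 0 in that counter, while the other muscle libraries had at least 30.7%, and it stood apart in this counter.

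The members took more of the gene counts in the livers with the lowest shares, and the highest liver (CTRL lamb 5) had 4.21 times the value of the lowest (CTRL lamb 2). They took 1.67% of the gene counts in CTRL lamb 1 (share 23.6%), 1.58% in EO lamb 15 (24.4%), 1.59% in CTRL lamb 7 (24.9%) and 1.67% in CTRL lamb 5 (26.1%). In the middle of the range, the values were 1.32% in EO lamb 10 (27.5%), 1.22% in EO lamb 12 (28.6%), 1.28% in EO lamb 9 (28.7%), 1.18% in EO lamb 11 (30.3%), 1.17% in CTRL lamb 4 (32.0%) and 0.941% in EO lamb 13 (33.4%). At the upper end they were 0.672% in CTRL lamb 6 (37.04%), 0.572% in CTRL lamb 3 (42.0%), 0.418% in EO lamb 16 (42.9%), 0.573% in EO lamb 14 (44.4%), 0.396% in CTRL lamb 2 (47.7%) and 0.399% in CTRL lamb 8 (48.6%). Every liver above 35% was below every liver under it, whichever diet the lamb had received. In muscle, the same genes took between 1.12% (CTRL lamb 8) and 1.63% (EO lamb 11) of the gene counts, a ratio of 1.46.

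**Figure D1:**
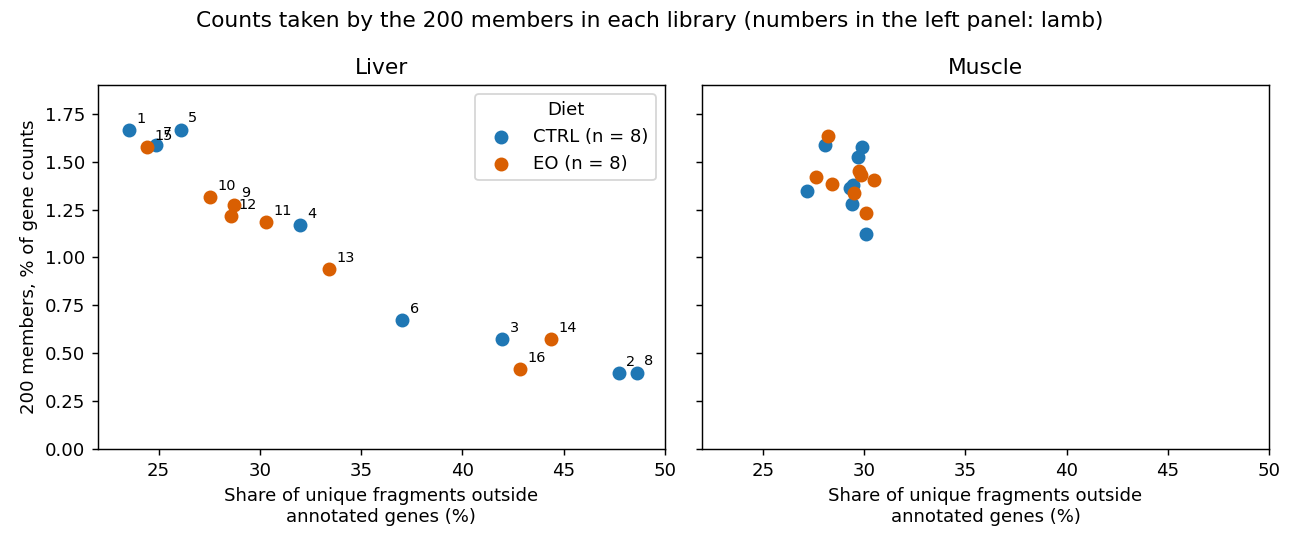
The part of the gene counts taken by the 200 members (vertical axis, %) is plotted against the share of unique fragments outside annotated genes (horizontal axis, %) for each liver (left) and muscle (right) library, coloured by diet. Liver libraries run from 1.67% at the left to 0.396% near the right end with both diets along the same course, whereas muscle libraries sit between 1.12% and 1.63% over a narrow range of shares.

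Libraries of like depth differed in the members. The liver of CTRL lamb 5 had 2893434 gene counts and a member part of 1.67%, whereas CTRL lamb 8 had 2795231 gene counts and 0.399%, and EO lamb 16 had 2946117 and 0.418%. Over the 16 livers, the Spearman correlation of member CPM with the total of gene counts lay between 0.05 and 0.46 (median 0.27). Since the members were chosen for the share, no order of the measures can be read from this. The correlation with the part of alignments that were not unique ran from -0.98 to -0.83 (median -0.91), and since both counters moved together over these livers they cannot be told apart. With scaling to all uniquely aligned fragments, those outside genes included, the ratio of the highest to the lowest liver, CTRL lamb 1 to CTRL lamb 8, was 6.21. A wider ratio follows from this scaling, since fragments outside genes made up more of the high-share libraries.

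Single members kept the order of the whole set. Their Spearman correlations with the share ran from -0.976 to -0.912 (median -0.929), against a median of -0.047 over the 5234 candidates, of which 2683 (51.3%) were below 0. The boundary of the set fell within a tie, since 6 members and 18 genes outside the set shared the value of -0.912 and were separated by identifier alone. The last 3 members inside had slopes of -1.37, -0.78 and -0.66 log2 units per 10 percentage points of share, and the first 3 genes outside had -0.82, -0.68 and -0.60. Genes at the boundary were thus alike on both sides. With each liver left out in turn, the correlations of the members stayed between -0.989 and -0.893.

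The slopes of log2(CPM + 1) on the share lay between -1.93 and -0.41 per 10 points (median -0.91, all candidates -0.03). The log2 difference between the liver of the lowest and that of the highest share was 0.75 to 4.70 (median 2.09). It was over 1 for 198 members, over 2 for 111 and over 3 for 28, while among all candidates 22.1%, 6.00% and 0.994% passed these limits. All these figures follow from how the members were chosen and show the size of the decline within the set. Their steep ends rest on few counts. The member with the steepest slope had a lowest count of 2 in CTRL and 1 in EO livers. In the liver of highest share, 22 members had fewer than 10 counts. In the 10 livers below 35%, the slopes had a median of -0.86 and were negative for 200 of 200 members. In the 6 livers above 35% the median was -0.54, and 192 of 200 were negative. For all candidates, 47.7% and 49.5% of slopes were negative in these ranges. These values, too, follow from the choice on all 16 livers.

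The members were all above or all below their own means in the livers at the ends of the range. In CTRL lambs 1, 5 and 7 and EO lamb 15, 200 of 200 members were above their mean over 16 livers, and in CTRL lambs 2 and 8 and EO lamb 16, 0 of 200 were. EO lamb 13, at 33.4%, divided the set, with 89 members above. The median deviation on the log2(CPM + 1) scale reached 0.94 in CTRL lamb 1 and -1.20 in EO lamb 16, with -1.19 in CTRL lamb 2 and -1.17 in CTRL lamb 8. EO lamb 14 lay above its neighbours at -0.66, with a share of 44.4%, and it was the shallowest liver library. In muscle, the same medians ran from -0.44 (CTRL lamb 8) to 0.27 (CTRL lamb 7).

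**Figure D2:**
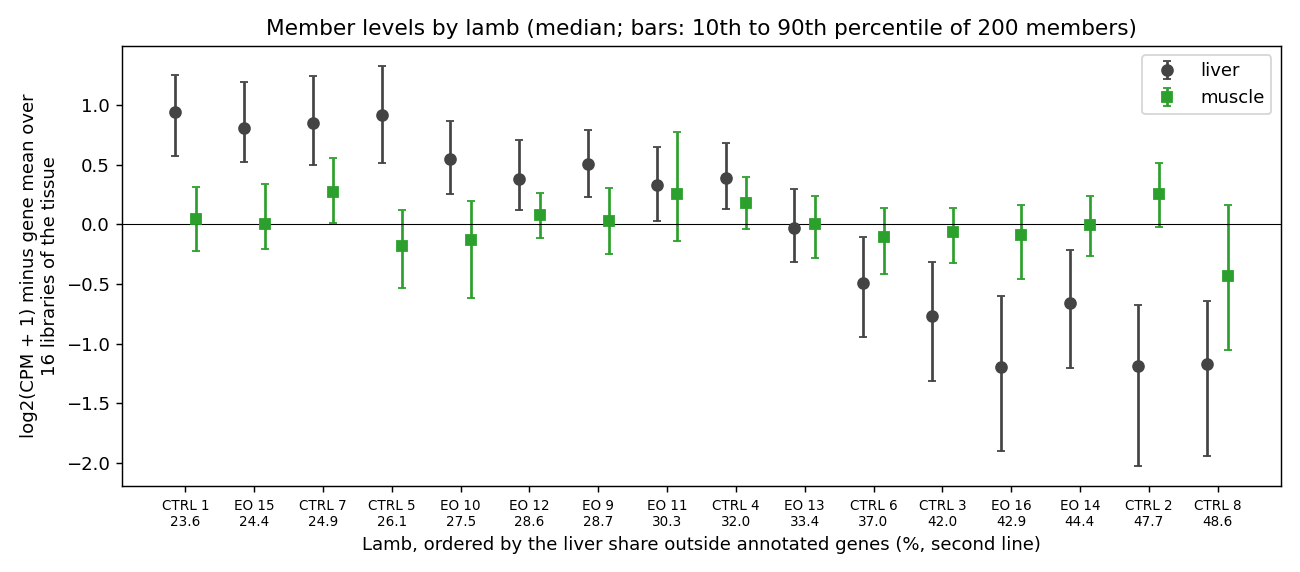
For each lamb, ordered by the share of its liver library (second line of the labels, %), the points give the median deviation of the 200 members from their own mean over 16 libraries of the tissue, in log2(CPM + 1), and the bars the 10th to 90th percentile of members. Liver medians go from 0.94 in CTRL lamb 1 to -1.17 in CTRL lamb 8, and muscle medians of the same lambs stay between -0.44 and 0.27 with no such order.

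Members were not lost from the high-share libraries, but many came close to the limit of counting. No member was at 0 in any liver. In the 10 livers below 35%, every member had at least 10 counts, whereas 1 member each in CTRL lambs 3 and 6, 17 in EO lamb 16, 29 in EO lamb 14, 23 in CTRL lamb 2 and 22 in CTRL lamb 8 had fewer. The median member level was 46.1 CPM in CTRL lamb 1 and 10.0 CPM in CTRL lamb 8. At least 10 CPM were reached by 200 members in CTRL lamb 1 and by 101 in CTRL lamb 8, and the lowest number was 96, in CTRL lamb 2. The limit of 10 CPM in 9 livers left room for members below it in every high-share library.

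The set was not made of abundant genes. Mean liver levels ran from 9.19 to 834 CPM with a median of 27.0, close to the 26.9 of all candidates. A mean over 50 CPM was found for 52 members (26%, all candidates 25.5%) and one over 100 CPM for 19 (9.5%, all candidates 10.7%). The slope bore little relation to the mean level (Spearman 0.07 across the 200 members, which share their libraries), so abundant and scarce members had like slopes.

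The member with the highest mean level, ENSOARG00000010650, showed how the decline looked at high counts. It had 1080, 1151, 1072 and 1036 CPM in the 4 livers of lowest share and 321, 346, 528 and 413 CPM in the 4 of highest share, taken from the ends inwards. Between these, it held 917 to 1038 CPM in the other 6 livers below 35%, and 795 and 680 CPM in CTRL lambs 6 and 3. The level of this gene was thus nearly flat up to a share of 33.4% and lower beyond it, each value resting on 771 to 6649 counts. Its course was not typical of the set, whose median slope was -0.86 per 10 points below 35% and -0.54 above. By diet, its liver CPM had a lowest, median and highest value of 321, 894 and 1080 in CTRL and 413, 985 and 1151 in EO, and the groups overlapped over most of their range. In muscle the values were 422, 512 and 626 CPM in CTRL and 393, 593 and 650 CPM in EO.

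The member with the lowest correlation, ENSOARG00000004931, was scarce. Its liver CPM had a lowest, median and highest value of 0.998, 9.91 and 21.9 in CTRL and 1.02, 13.0 and 17.3 in EO. The highest value came from 104 counts in CTRL lamb 1 and the lowest values from 3 counts each in CTRL lamb 2 and EO lamb 16, so no fold is given. In muscle it stayed between 2.91 and 4.64 CPM in CTRL and between 0.777 and 4.75 CPM in EO, under the levels of the low-share livers. The member with the steepest slope ranged from 0.339 CPM, on 1 count, to 50.8 CPM in liver and the one with the flattest from 13.3 to 30.4 CPM. Both had overlapping diet groups, and both had their lowest values in livers above 35%.

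The members were spread over low and high muscle levels. Mean muscle CPM ran from 0.588 to 1925 with a median of 32.6, against 0.588 to 11160 and 31.8 for all candidates. More than 2-fold higher in muscle were 46 members (23%), within 2-fold 112 (56%), and more than 2-fold higher in liver 42 (21%), while the corresponding parts of all candidates were 19.8%, 62.6% and 17.6%. Median slopes in liver were -0.81, -0.91 and -1.04 per 10 points in these classes, whose ranges overlapped. Which tissue a member favoured therefore depended on the liver library: 137 members were higher in liver than in muscle of CTRL lamb 1, 148 in CTRL lamb 5, 21 in CTRL lamb 2 and 39 in CTRL lamb 8.

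**Figure D3:**
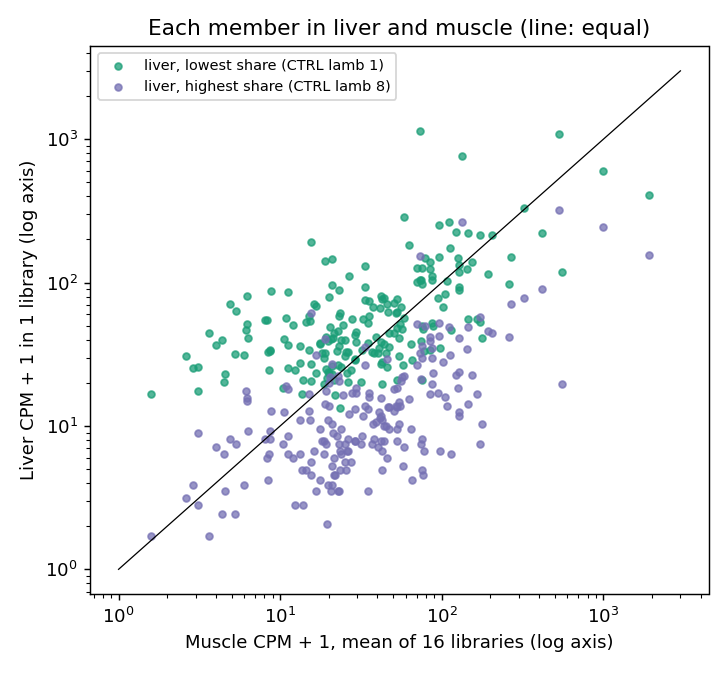
Each member is drawn at its mean muscle level over 16 libraries (horizontal axis, CPM + 1, log scale) and at its liver level in the library of lowest share (green) and of highest share (purple; vertical axis, CPM + 1, log scale), with a line of equal levels. Most green points lie above the line or near it and most purple points below it, since the median member had 46.1 CPM in the first liver and 10.0 CPM in the second.

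The spread between lambs was much larger in liver. The SD of log2(CPM + 1) had a median of 0.826 in liver and 0.299 in muscle over the members, and 0.426 and 0.260 over all candidates. It was larger in liver for 200 of 200 members and for 85.6% of all candidates. The members were chosen for following a share that ranged more widely in liver than in muscle. The choice thus favoured a larger SD in liver, and the count is a description. Once a straight line on the share was removed, the residual SD of the members in liver had a median of 0.300, against 0.297 for all candidates, and it was below the SD in muscle for 113 members (56.5%, all candidates 39.6%). The residual SD of the members was thus near that of the candidates as a whole. Since the line was fitted on the share that chose the members, this too is a description.

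Whether genes of this kind follow the share in animals not used to choose them was examined by choosing 200 genes in the livers of one diet group and testing them in the other, a check added after the data were seen. The limit was 10 CPM in 5 or more of the 8 livers, and the ratio limit used the means of all libraries. These lists were not the 200 members: 65 genes (32.5%) of the list chosen in CTRL and 84 (42%) of the list chosen in EO were among them, and the diet lists shared 25 genes (12.5% of each).

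Most genes of both lists fell with the share in the lambs that had not chosen them. The genes of a list share the same livers, so the counts below describe these livers. They are no test of the 200 members. Of the 200 genes chosen in CTRL livers, 164 (82%) were lower at higher share in EO livers by edgeR's quasi-likelihood test (Benjamini-Hochberg adjusted over 11500 genes, threshold 0.05), where 19.6% of all genes tested were called lower. None was called higher by edgeR, none had an estimate above 0, and DESeq2 called 161 lower. The median estimate was -0.68 log2 units per 10 points, against -0.04 over all genes. Of the 200 chosen in EO livers, 175 (87.5%) were called lower in CTRL livers with edgeR, where 26.5% of all genes were, DESeq2 called the same number, and the median was -0.77. Without EO lamb 16, the first count dropped to 113 genes, whereas the second stayed between 172 and 175 with any CTRL liver left out. Since about as many genes were called higher with the share as lower in each diet group (19.7% and 25% of all genes), the lists belonged to one side of a difference that ran through much of the liver tables.

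Both named members belonged to one of these lists, but their relation to the share over all 16 livers had already made them members, so their slopes are given without a test. The edgeR slope of ENSOARG00000010650 was -0.0629 log2 units per percentage point in EO livers, and that of ENSOARG00000004931 was -0.134 in CTRL livers. The gene chosen in EO that was called higher in CTRL livers was ENSOARG00000008758, which is no member and was singled out after its values were seen. It rose by 0.0237 per point (SE 0.00785, edgeR adjusted p = 0.0233), and this call was lost without CTRL lamb 1, 2 or 7. Its liver CPM was 92.2, 105 and 130 (lowest, median, highest) in CTRL and 87.6, 96.5 and 115 in EO, so it varied far less than the members.

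**Figure D4:**
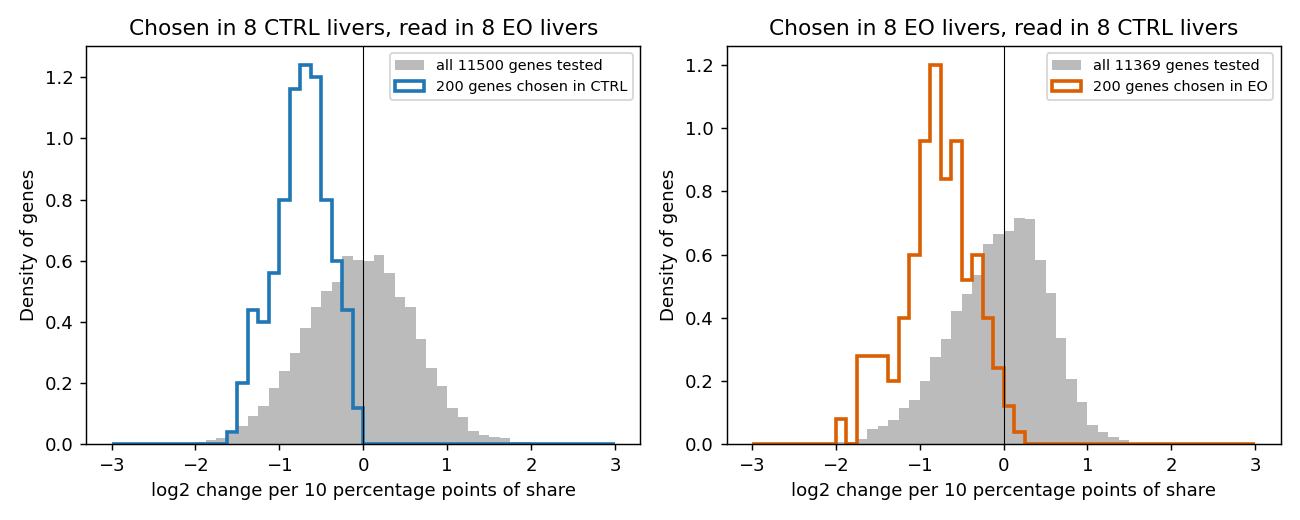
Histograms give the density of genes by their estimated log2 change per 10 percentage points of share, for 200 genes chosen in CTRL and tested in EO livers (left) and the reverse (right), each over all genes tested in grey. The chosen genes centre on -0.68 and -0.77, and 200 of 200 on the left and 196 of 200 on the right lie below 0.

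The median slope of the 200 members themselves was close between the diets, and the difference was not tested. Within CTRL livers their Spearman correlations with the share were -1 to -0.81 and within EO livers -1 to -0.71, with median slopes of -0.0924 and -0.0919 log2 units per point. Slopes in CTRL and in EO were related across members (Spearman 0.73, a description, since the members were chosen on both groups together).

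No diet difference passed the test for the members in liver. With edgeR, 0 of 200 members and 0% of the 11570 genes tested were called between EO and CTRL, and DESeq2 also called 0 genes. This fit pooled males and females, whereas the model of the paper held sex and its interaction with diet. Differences of opposite sign in the sexes could cancel here, so the result is not comparable with that of the paper. The members were chosen on the same liver CPM for following a share that differed little between the diets. The choice thus made a member with a large diet difference unlikely, and the result for the members is not independent of it. At an unadjusted p under 0.05, edgeR gave 0 members and 271 genes. The log2 fold changes of EO over CTRL lay between -0.40 and 0.40 (median 0.06, all genes -0.01), with SEs of 0.18 to 0.73. The members took 1.02% ± 0.570 of gene counts in CTRL and 1.06% ± 0.393 in EO livers (SD, n = 8 each), so the spread within a diet was many times the difference between the diets. For ENSOARG00000010650 the estimate was 0.15 (SE 0.26, edgeR adjusted p = 1.00).

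The direction of the diet estimates changed with single livers. Of 200 members, 66 (33%) had a negative estimate over all livers, where 51.8% of all genes did. The count was 14 without CTRL lamb 1 (all genes 5635 of 11412) and 135 without EO lamb 15 (all genes 6145 of 11433). Leaving out CTRL lamb 2, 3 or 8 gave 131, 121 and 134, and leaving out CTRL lamb 5 or 7 or EO lamb 14 or 16 gave 20, 21, 34 and 21. The median moved between -0.06 and 0.20 over these fits. With the share as a covariate, 142 estimates (71%) were negative, against 50.2% over all genes. The median was -0.06, and the median SE went from 0.355 to 0.145. The members were chosen for following the share in these same livers. The smaller SE therefore follows from the choice, and the counts of this fit are a description. In that fit, 9 members had an unadjusted p under 0.05, each lower in EO, beside 347 lower and 541 higher genes of the 11570 tested. None was called with edgeR (smallest adjusted p = 0.623). With age as a covariate, 32 were negative (all genes 5625 of 11570). No direction of the members with diet can therefore be given.

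**Figure D5:**
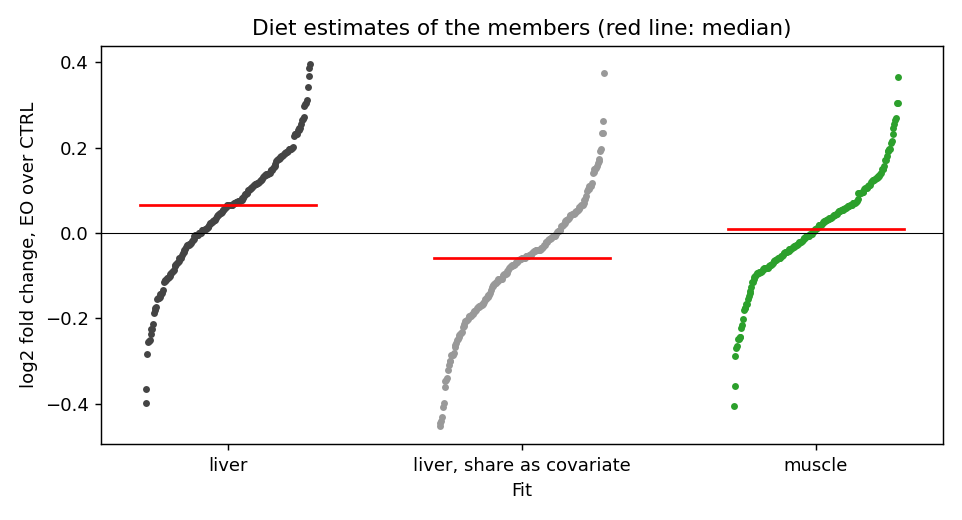
Each point is the log2 fold change of EO over CTRL for 1 member, sorted within each fit, for liver, liver with the share as a covariate, and muscle. The medians (red lines) are 0.06, -0.06 and 0.01, and no point passed the test in any fit.

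In muscle, 199 of the 200 members had enough counts to be tested. Between diets, edgeR called 0 of 199 members and 0% of 11757 genes, DESeq2 called 0, and 2 members had an unadjusted p under 0.05, 1 in each direction. The log2 fold changes lay between -0.41 and 0.37 (median 0.01), and their median SE of 0.142 was well under that in liver. The members took 1.40% ± 0.160 of gene counts in CTRL and 1.41% ± 0.114 in EO muscles (SD, n = 8 each). Diet estimates in muscle were not shown to differ from those in liver. With edgeR over 13020 genes, the interaction of diet and tissue was called for 0 members and 0% of genes, with 0 members at an unadjusted p under 0.05. DESeq2 called 1 gene, not a member. These fits had no term for the lamb, so the 2 libraries of a lamb entered as independent. The fit with the lamb as a block is given in the last section.

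The muscle libraries allowed the relation to be read in samples whose shares had not chosen the members, although these shares spanned only 27.2% to 30.5%. With edgeR, 0 of 199 members and 0% of all genes were called, and DESeq2 called 3 genes, none of them members. The estimate was negative for 171 members (85.9%), where 49.9% of all genes had a negative estimate. The median was -0.0671 log2 units per percentage point, against 0.000127 over all genes, and single estimates ran from -0.27 to 0.18. On CPM, without TMM normalization, the Spearman correlation with the muscle share was negative for 132 of 200 members (66%, median -0.09) and for 29.8% of all candidates (median 0.18), so the count of negative members depended on the scaling and the measure. At an unadjusted p under 0.05, 7 members were lower and 0 higher (smallest adjusted p = 0.688), and over all genes 372 were lower and 351 higher. The count of negative estimates was 159 to 174 with any muscle library left out. Members share libraries, so these counts are a description of 16 muscles and no test of the set.

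Muscle was also compared with the share of the liver library of the same lamb. With edgeR and with DESeq2, 0 members and 0% of genes were called. The estimate was negative for 139 of 199 members (69.8%, all genes 50.3%), with a median of -0.00432 per point. At an unadjusted p under 0.05, 6 members were lower and 0 higher, and over all 11757 genes 315 were lower and 304 higher. Without the muscle of CTRL lamb 8, which had the lowest member part in muscle and whose liver had the highest share, 90 estimates were negative and the median was 0.000746. The relation thus rested on that lamb.

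Members moved together in liver, as the choice requires, and less so in muscle. The median Pearson correlation of log2(CPM + 1) over all pairs of members was 0.919 in 16 livers and 0.362 in 16 muscles, where 35.7% of pairs were over 0.5. Over all candidates in muscle, the median was 0.098 and 14.0% of pairs were over 0.5. The 200 candidates with the highest correlation with the share had a median of 0.368 in muscle, close to that of the members. Without the muscle of CTRL lamb 8, the median of the members was 0.320. Across the 16 lambs, the correlation between the liver and the muscle level of a member had a median of 0.192. It was positive for 158 of 200, against 0.0936 and 63.3% for all candidates.

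The members were also set against the candidates at the other end of the ranking. The summed CPM of the 200 members was 0.992 to 0.0793 of that of the 200 candidates with the highest correlations with the share over the 16 livers (median 0.441), a range that the choice of both lists produced. The same ratio ran from 0.184 to 0.501 in muscle (median 0.312), inside the range of the livers.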

How the data were processed

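RNA of liver and muscle of 16 lambs was sequenced by the authors as poly-A libraries with paired reads. Per the labels and the paper, reads were checked with FastQC, trimmed with Trimmomatic 0.33, aligned with STAR 2.4.0.1 to the Ensembl sheep genome (Ovis aries v.3.1) and counted per gene with HTSeq 0.6.1. The strand setting and overlap mode of HTSeq are not given in the sources used here, and without strand, overlapping and antisense genes cannot be separated. The authors deposited raw counts per gene, with no normalization, for 27054 genes and 5 HTSeq counters. These counters stayed out of library sizes and tests. Fragments on no gene were 23.6% to 48.6% of unique fragments in liver and 27.2% to 30.5% in muscle. Depth limits the precision of scarce members, of which up to 29 had fewer than 10 counts in a liver.

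Samples were grouped by the tissue, diet and number in their labels. The members and lists were chosen with earlier results of these data known. Genes that reached 1 CPM in 9 libraries of a tissue were tested with edgeR 4.0.16 in R 4.3.3 (TMM, glmQLFit, glmQLFTest), with Benjamini-Hochberg adjustment over all genes tested and a threshold of 0.05. Terms were diet, the share outside annotated genes, or diet by tissue, with sex left out because the labels do not give it per lamb. Single values were compared by exact permutation tests (Python 3.11.15, SciPy 1.17.1). The fits were tested on simulated counts. Alternatives were DESeq2 1.42.0, other normalizations, filters and covariates, and each library left out in turn. Descriptive slopes used log2(CPM + 1).

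Liver and muscle samples of the same number are the same lamb, since number, diet and age match in the labels. Over 10307 genes, the deviations of liver and muscle of a lamb from their group means correlated by 0.107 on average, against -0.0162 for different lambs. The value was above 0.1 for 7 of 16 lambs and the lowest was -0.244, so the pairing rests on the labels. The planned rule for named genes took members with extreme correlation, level or slope, the genes beside the boundary and members with the smallest adjusted p. As no symbol could be matched, only 2 declining genes and 1 increasing gene are printed by identifier, and the planned gene lists and cell type markers were not run. No sequence is given.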

Additional observations from a re-analysis of the deposited data

Results flagged for a closer look

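In 28 groups of 8 libraries, the lowest or highest library was set against the others of its group for the shares, depths and member measures. The muscle library of CTRL lamb 5 lay beyond Dixon's 95% critical value, with 0% of its records in the counter for alignments that were not unique. It was the only one of the 28, where by chance about 1 group in 20 lies beyond that value (1.4 here). That counter enters no member value, since CPM and the share outside annotated genes use uniquely aligned fragments only.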

How the results depend on the processing

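No count of members called between diets, by muscle share or by liver share in muscle left 0 under any alternative run (DESeq2, size-factor normalization, other filters and covariates, each library left out). Over all genes, DESeq2 called 3 genes by muscle share and 1 for diet by tissue, where edgeR called 0. With the lamb as a replicate block in the fit of diet by tissue, 0 genes were called. There, 157 of 200 members (78.5%) had a negative estimate of EO over CTRL in muscle minus liver, against 50.3% of all genes. Without the block, 125 members (62.5%) and 47.2% of all genes did. The diet estimates in liver changed direction with single livers, and the fits of diet by tissue were not repeated with a library left out. Leaving out 1 EO liver each moved the number of genes called by share in EO livers between 2296 (without EO lamb 16) and 4591. Leaving out 1 CTRL liver each gave 0 to 1 genes called higher among those chosen in EO. The causes of these changes were not tested, although fewer samples entered each fit with a liver left out.

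Membership depended on how it was measured. Of the 200 members, 119 were kept with Pearson correlation of log2(CPM + 1), 64 with the share taken of everything recorded, 125 with ranks within each diet, and 52 with a limit of 50 CPM, under which most members are no candidates. TMM kept 158, DESeq2 size factors 154, a limit of 1 CPM 155, no ratio limit 153, and scaling to unique fragments, an alternative chosen after seeing the data, 138. Leaving out 1 liver each kept 141 to 179.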
